A study of Mus musculus with 3 samples.

Results

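In mouse CD8+ T cells, 130 genes had their highest transcript level in central memory cells, at least 2-fold above both naive and effector memory cells. They were chosen by measured level. A gene was taken when it had at least 5 CPM (a gene's count per 1000000 counts of its library) in central memory and at least 2-fold the CPM of naive and of effector memory, with a count of 0 set to 3 counts. The rule took 161 of 9407 genes at 5 CPM or more in central memory, or 1.71%. It then left out 31 genes by symbol, chiefly unnamed gene models and killer-lectin, chemokine, integrin and receptor segment genes. The 130 that remained are 1.48% of the 8810 genes whose symbols were kept, out of 25638 in the table. Because the ratios to naive and to effector memory chose the members, they are given as a description throughout.

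The samples were 1 library each of naive, central memory and effector memory CD8+ T cells, sorted from spleen, all from untreated mice of wild-type genotype. The labels used here give no strain, age, sorting markers or number of animals. With 1 library a group there is no replicate error and no test of any difference. Values for the libraries are given below in the order naive, central memory, effector memory. The 95% exact (Clopper-Pearson) intervals of ratios given below cover counting error only. In such bulk libraries, more transcript in each cell and more cells of a kind that carries the transcript cannot be told apart.

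Central memory T cells are antigen-experienced cells that keep the homing receptors of naive cells, circulate through lymphoid organs, survive for long periods and divide again when they meet antigen. Effector memory cells have lost those homing receptors, patrol blood and tissues, and hold more of the cytotoxic machinery ready. Transcription factors of the T cell factor, MYB and inhibitor of DNA binding families are known for maintaining the long-lived state, and T-box factors for shaping memory and effector function.

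The libraries held 26876909, 35846315 and 33087462 counts, so that a count of 0 allows up to 0.112, 0.0837 and 0.0907 CPM. All 14 of 14 CD8 T cell identity genes were at 5 CPM or more in each library. The homing and activation markers went with the labels. Ccr7, a chemokine receptor for homing to lymph nodes, was at 386, 339 and 30.8 CPM, while Cd44, a marker of antigen experience, was at 3.05, 45.7 and 109 CPM. Neutrophil, plasma cell, erythroid and stromal lists summed to at most 1.99 CPM in any library. The list of 18 NK cell genes summed to 54.2, 272 and 1198 CPM. Gzma, a granule protease that memory CD8+ T cells also make, gave most of the effector memory sum at 1048 CPM. The defining NK receptor Ncr1 was at 0, 12.2 and 0 CPM and Klrb1c at 0.223, 32.9 and 1.84 CPM, both highest in central memory as the members are. Of the 18, 2, 9 and 4 were at 5 CPM or more in the libraries, and Cma1 was at 0 in all 3. What part such cells have in the members' levels was not tested.

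**Figure D1:**
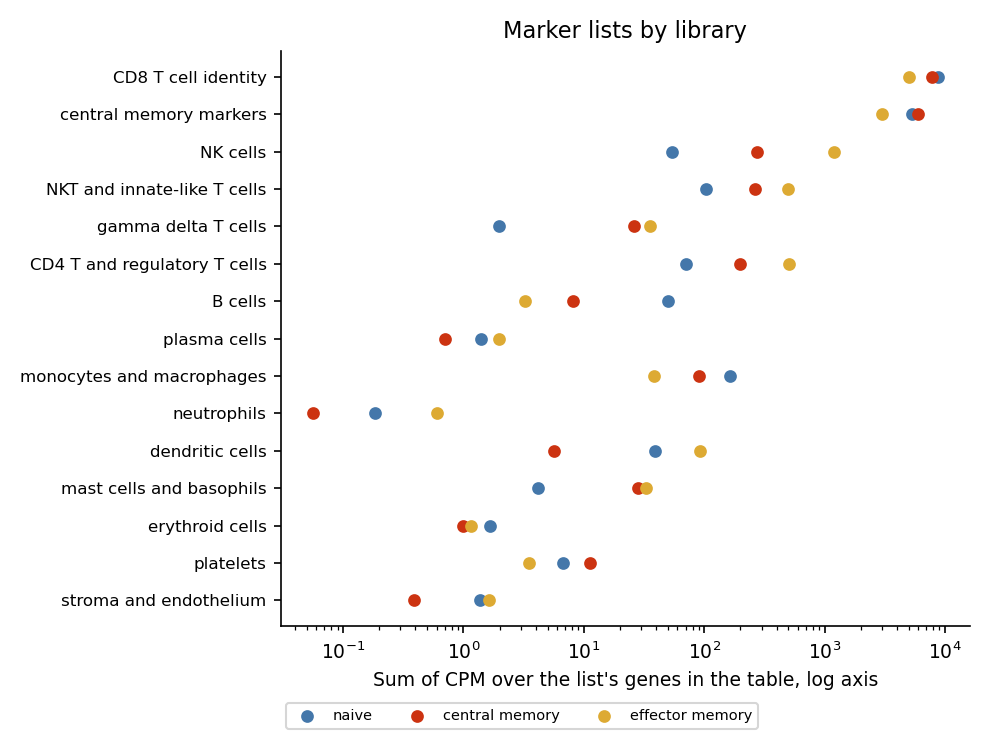
Sum of CPM over each marker list (horizontal log axis) in the naive, central memory and effector memory libraries, 1 point per library. CD8 T cell identity and central memory markers have the highest sums, B cell markers are highest in naive at 50.1 CPM, and NK cell markers are at 54.2, 272 and 1198 CPM.

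Members were mostly genes of modest level. Their medians in the libraries were 4.8, 18.5 and 4.78 CPM, against 45.6, 48 and 46.4 CPM over the genes measured with kept symbols. In central memory they ran from 5.02 CPM to 1179 CPM, with 38 under 10 CPM, 35 at 50 CPM or more and 4 at 500 CPM or more. The median member was 3.06-fold above naive and 3.6-fold above effector memory. Few stood far apart: 79 were between 2- and 3-fold above the nearer of the other libraries, 25 at least 5-fold and 7 at least 10-fold. The nearer library was naive for 73 members and effector memory for 57. All 130 had counting intervals above 1 for both ratios, and 86 had both lower bounds at 2 or more.

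The same rule turned to the other libraries took more genes, 439 for naive (4.83% of 9089) and 1239 for effector memory (13% of 9543), before any symbol was left out. The limits of the rule cut through a continuum. Just inside the 2-fold limit lay Cmtm3 at 2.005-fold, Ggt7 at 2.015, Lyst at 2.022, Mllt11 at 2.022 and Snx29 at 2.028. Just outside it lay Ifitm10 at 1.999, Faah at 1.997, Ccs at 1.995, Lzts2 at 1.992 and Calhm2 at 1.989. Tyrobp at 5.021 CPM, Kcnj8 at 5.105, Camkmt at 5.189, Orm2 at 5.273 and Ccdc39 at 5.273 were the lowest members in level, and Cecr6 at 4.77, Nat8f1 at 4.715, Tmem198 at 4.631, Icam5 at 4.575 and Stkld1 at 4.575 met the ratios but missed the level.

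Membership of some genes depended on the scaling. Medians were taken over genes at 5 CPM or more in central memory with counts in every library. At column totals the median log2 ratio was 0.10 for central memory over naive and 0.17 over effector memory. The typical gene of this set, itself chosen by central memory level, was thus slightly higher in central memory. With DESeq2 size factors the latter median was 0.04. With 3 other scalings, 108 members stayed and 22 left under at least 1 of them. The 22 include the abundant genes Ly6c2, Lyst, Gramd3 and Btg2, along with Trps1, Naip5, Foxred2, Tbxa2r and Grb7. They also include Tyrobp and Kcnj8, which lay just inside the 5 CPM limit.

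**Figure D2:**
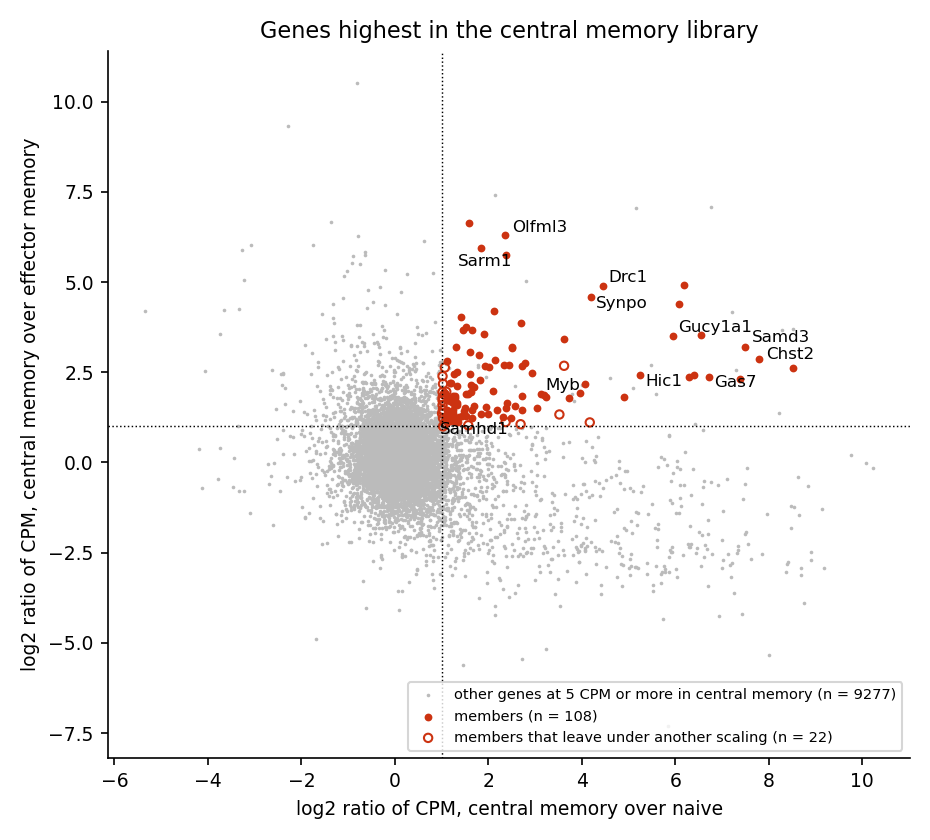
Each point is a gene at 5 CPM or more in central memory, with the log2 ratio of central memory over naive (horizontal) against central memory over effector memory (vertical), and dotted lines at a ratio of 2. Filled red points are the 108 members kept under every scaling, open red points the 22 that leave under at least 1, and grey points in the same corner are genes left out by symbol; the members crowd the corner at 2-fold, with Drc1, Synpo, Gucy1a1, Samd3 and Chst2 far from it.

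The member that stood furthest above both other libraries by counting bound was Drc1, a subunit of the dynein regulatory complex of motile cilia. Drc1 was at 2.08, 45.9 and 1.54 CPM. The other 2 libraries were both low, and central memory was 22-fold above naive (interval 16.9 to 29.3) and 29.8-fold above effector memory (22.5 to 40.2). T cells build no motile cilium, and another axoneme gene among the members was low. Ccdc39, which sets the spacing of axonemal arms, was at 1.49, 5.27 and 1.09 CPM. Exons of Ccdc39 overlap those of Ttc14 on the opposite strand, a gene at 162, 184 and 91.2 CPM.

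Of the 11 members of the cytoskeleton, Synpo came next. It encodes synaptopodin, an actin-binding protein known from kidney podocytes and dendritic spines, and was at 1.27, 23.1 and 0.967 CPM. The ratio was 18.3 over naive (13 to 26.6) and 23.9 over effector memory (16.8 to 35.2). Gas7, an F-BAR protein of actin-rich protrusions, differed in that effector memory lay in between, at 0.223, 23.5 and 4.5 CPM. Among 14 unconventional myosins at 5 CPM or more in central memory, 2 were members, against 1.48% of all such genes with kept symbols. The family was chosen after its values were seen. Myo3b was at 2.57, 12.9 and 1.99 CPM. Myo1h was at 1.15, 7.5 and 0.514 CPM, with exons that overlap Kctd10 on the opposite strand. The tubulin acetyltransferase Atat1 was at 6.92, 17.4 and 7.89 CPM, nearer the limit of the rule, as was the syntrophin Sntb2, which leaves under another scaling, at 56.3, 115 and 41.7 CPM.

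**Figure D3:**
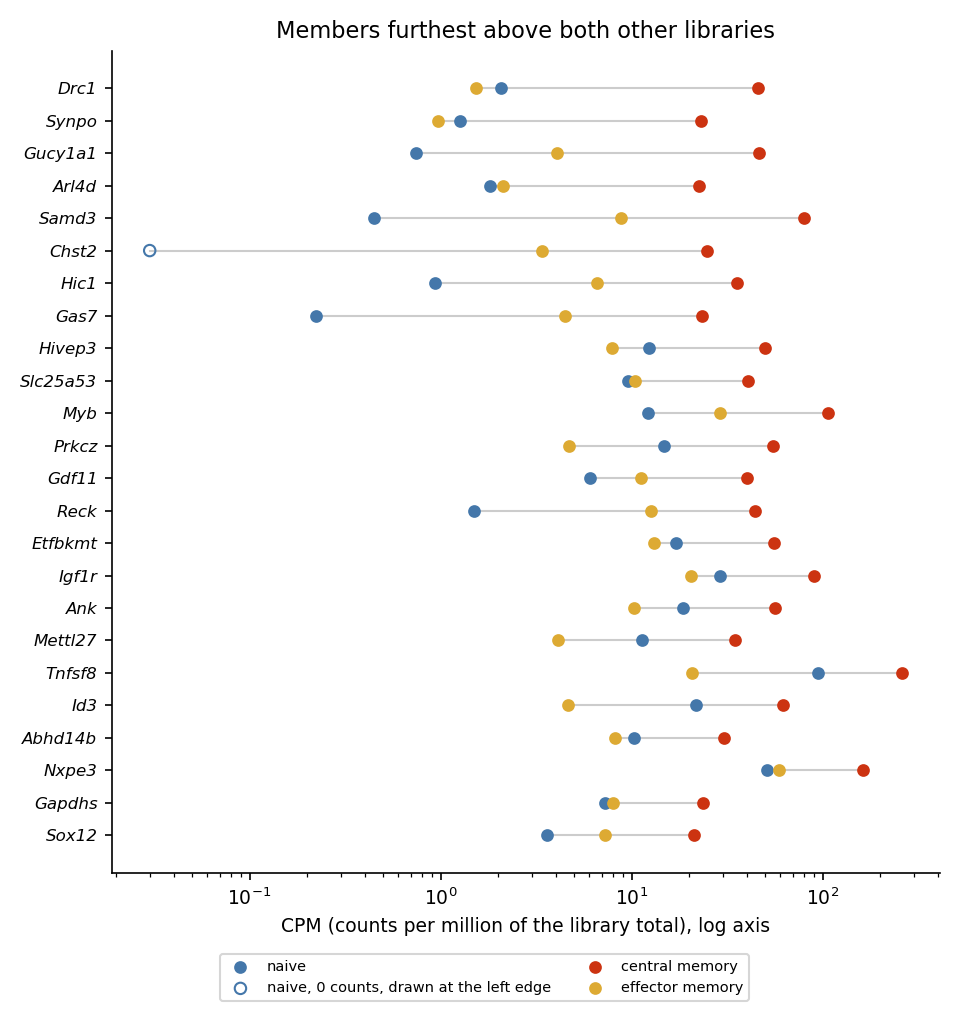
CPM (horizontal log axis) of 24 of the 25 members with the highest lower counting bound of their smaller ratio, among members at 20 CPM or more in central memory, 1 point per library. Central memory is the rightmost point in each row, as the rule requires; the naive and effector memory points change places, with Samd3, Gas7, Reck and Hic1 lowest in naive and Tnfsf8, Id3, Prkcz and Mettl27 lowest in effector memory.

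Of 2 soluble guanylate cyclase subunits at 5 CPM or more in central memory, both were members, against 1.48% of all such genes with kept symbols. The family was chosen after its values were seen. Soluble guanylate cyclase is a heterodimer of an alpha and a beta subunit that binds nitric oxide through a haem group and makes cyclic GMP. Gucy1a1, the alpha subunit, was at 0.744, 46.5 and 4.08 CPM. It was 62.5-fold above naive (40.3 to 103) and 11.4-fold above effector memory (9.55 to 13.7), and most of its counts lay in the central memory library. Gucy1b1, the beta subunit, was at 1.04, 7.92 and 1.42 CPM, which is 7.6-fold above naive (5.15 to 11.7) and 5.58-fold above effector memory (4.08 to 7.77). Per kilobase of exon, Gucy1a1 was at 6.67 and Gucy1b1 at 2.02 CPM in central memory. The paralogs were at or near 0, Gucy1a2 with 0 counts in all 3 libraries and Gucy1b2 at 0.0744, 0 and 0.242 CPM. The nitric oxide synthases Nos1, Nos2 and Nos3 did not exceed 0.242 CPM in any library.

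The 2 genes are neighbours on chromosome 3, transcribed in the same direction and 17.7 kb apart, with Gucy1b1 at 82032006-82074689 and Gucy1a1 at 82092427-82145789 on the minus strand of mm10 (GENCODE M21). Sequence upstream of their starts, from RefSeq promoters of GRCm38.p6, is shown because they are an adjacent pair of members. It covers chr3:82145790-82145900 for Gucy1a1, which stops where the GENCODE gene begins, and chr3:82074712-82074861 for Gucy1b1, both on the minus strand and written 5′ to 3′. Capitals mark the GC box (CCCGCCC or its reverse GGGCGGG) and the CCAAT box (CCAAT or ATTGG).
Gucy1a1: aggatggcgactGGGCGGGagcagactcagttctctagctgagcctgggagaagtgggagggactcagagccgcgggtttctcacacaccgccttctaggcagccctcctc
Gucy1b1: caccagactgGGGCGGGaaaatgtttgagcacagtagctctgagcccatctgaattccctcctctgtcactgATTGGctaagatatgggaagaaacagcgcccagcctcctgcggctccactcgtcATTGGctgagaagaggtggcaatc
Both stretches hold a GC box and the Gucy1b1 stretch also holds 2 CCAAT boxes. Both are common letters: 46.2% of the 106 members with a promoter entry held the GC box in the full 300 bases and 35.8% the CCAAT box, against 50.6% and 39.4% of 7085 genes at 5 CPM or more.

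Regulators of transcription and chromatin made up 16 members. Myb, the founding MYB factor, needed by blood progenitors and linked to stem-like memory CD8+ T cells, was at 12.2, 107 and 28.9 CPM. It was 8.78-fold above naive (7.84 to 9.85) and 3.72-fold above effector memory (3.47 to 4), the naive library being the lowest. Its relatives took another order: Mybl2, a factor of dividing cells, was at 3.16, 18 and 108 CPM and Mybl1 at 0.781, 3.38 and 16.4 CPM, both highest in effector memory.

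Id3 encodes an inhibitor of E protein transcription factors and is a known mark of long-lived memory CD8+ T cells. It was at 21.7, 62.2 and 4.62 CPM, 2.87-fold above naive (2.62 to 3.15) and 13.5-fold above effector memory (11.4 to 16). Id2, its relative with the same mode of action and a known role in effector cells, was instead highest in effector memory at 124, 172 and 296 CPM. Hic1, a zinc finger repressor, was at 0.93, 35.5 and 6.59 CPM, low in naive and 38.1-fold higher in central memory (25.7 to 59.2). Pou6f1, a POU-domain factor, was lowest in effector memory, at 47.7, 127 and 7.8 CPM, with a ratio of 16.3 over effector memory (14.4 to 18.6). Pou2f2, the octamer-binding factor OCT2, was at 42.2, 88.9 and 36.3 CPM and lay close to the limit over naive at 2.11-fold.

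Hivep3, a large zinc finger protein, was at 12.4, 49.9 and 7.89 CPM, with naive the nearer library. Sox12 was at 3.61, 21.3 and 7.22 CPM and was the only SOX gene at 5 CPM or more in central memory, with Sox13 just under it at 0, 4.32 and 2.02 CPM. Klf9 was at 2.01, 13.1 and 4.78 CPM. It differed from the quiescence factor Klf2, at 530, 250 and 7.01 CPM, and Klf3, at 311, 105 and 6.07 CPM, which were highest in naive. Trps1, a GATA-type repressor that leaves the set under another scaling, was at 5.51, 28.5 and 13.1 CPM. Btg2, an antiproliferative gene that also leaves, was at 121, 252 and 68.7 CPM. The clock gene Per3 was low, at 4.09, 9.88 and 1.81 CPM. The other members of this group were Thap3, a THAP-domain protein, at 29.9, 64.7 and 19.5 CPM, Mllt11, which leaves under another scaling, at 12.8, 25.8 and 8.55 CPM, the repressor Nacc2 at 3.01, 7.48 and 0.816 CPM, and Zfr2 at 1.97, 5.52 and 2.06 CPM.

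Receptors, ligands and adaptors were the largest group with 25 members. Tnfsf8, the ligand of CD30, was at 95, 261 and 20.7 CPM. It was 2.75-fold above naive (2.63 to 2.87) and 12.6-fold above effector memory (11.7 to 13.6). Its receptor Tnfrsf8 was instead highest in effector memory, at 0, 0.335 and 51 CPM. Ly6c2, a surface marker of memory CD8+ T cells, was at 188, 559 and 274 CPM and leaves the set under another scaling, at 2.04-fold over effector memory (1.99 to 2.09). Its near-identical relative Ly6c1 was at or below 0.856 CPM in each library. How the authors' counting divided reads between them is not known from the labels.

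Igf1r, the receptor of insulin-like growth factors, was at 29.1, 90.1 and 20.4 CPM, 3.1-fold above naive (2.86 to 3.35) and 4.42-fold above effector memory (4.07 to 4.81). Notch2 was at 109, 268 and 123 CPM, while Notch1 was highest in naive at 418, 259 and 143 CPM. Tbxa2r, the thromboxane receptor, was at 43, 87.8 and 19.4 CPM and leaves under another scaling. Gdf11, a ligand of the TGF-beta family, was at 6.06, 40.3 and 11.2 CPM, with naive the lowest. Receptor tyrosine kinases of other tissues were low: Ddr1, a collagen receptor, was at 3.68, 19.1 and 6.77 CPM and Fgfr1, a receptor of fibroblast growth factors, at 0.93, 6.17 and 0.967 CPM. The docking adaptor Gab3 was at 16.7, 40.4 and 11.6 CPM and the adaptor Grb7, which leaves under another scaling, at 6.44, 13.5 and 2.18 CPM. Il11ra1, the receptor chain for interleukin 11, was at 5.88, 12.5 and 5.29 CPM. Ceacam15 rested on 2 counts in naive, at 0.0744, 5.44 and 0.181 CPM, which gives 73.1-fold (20 to 608).

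Several members of this group are better known from other cells of the spleen or from innate lymphocytes. Tyrobp, which encodes the signalling adaptor DAP12 of NK and myeloid receptors, was at 0.409, 5.02 and 0.786 CPM, at the limit of the level and lost under another scaling. Hcst, the sister adaptor DAP10, was at 34.4, 62.1 and 13.6 CPM and missed the ratio over naive. Fgr, a SRC-family kinase of myeloid cells, was at 1.9, 10.6 and 4.5 CPM. Beside them the NK cell list summed to 54.2, 272 and 1198 CPM, of which Gzma gave 0.558, 85.2 and 1048 CPM. Ncr1 and the Klr genes of the list were highest in central memory, such as Klre1 at 0.0744, 11.7 and 1.96 CPM. Car2 was also highest in central memory, at 4.54, 8.68 and 1.33 CPM. Gzma, Adamts14 and Khdc1a were highest in effector memory. Eomes, Fcgr3, Itga2 and Sh2d1b1 were only slightly higher in effector memory than in central memory. Among these, Eomes was at 39.5, 74.4 and 77.2 CPM and Fcgr3 at 0.298, 2.23 and 2.51 CPM. The part of NK cells in the values of Tyrobp, Hcst and Fgr was not tested. The monocyte and macrophage list summed to 164, 91.1 and 38 CPM, of which the protease gene Ctss alone gave 155, 86.8 and 14.6 CPM. Cd68 was highest in effector memory at 3.5, 4.05 and 20.4 CPM. The defining genes Csf1r and Lyz2 were at 0.0558 CPM in central memory and Adgre1 at 0 in all 3, and the part of such cells was not tested. Tnfrsf13c, the BAFF receptor of B cells, was at 1.6, 9.09 and 0.997 CPM. B cell markers summed to 50.1, 8.2 and 3.23 CPM. Ms4a1 had 0 counts in central memory, while Cd79a was at 5.51, 3.29 and 0.604 CPM and Cd79b at 15.1, 2.76 and 2.12 CPM. The part of B cells in the Tnfrsf13c value was not tested. Gp1ba, part of the platelet receptor for von Willebrand factor, was at 2.6, 9.09 and 1.15 CPM. The platelet list, Gp1ba included, summed to 6.73, 11.3 and 3.51 CPM. Itga2b was at 3.98, 2.09 and 2.3 CPM. Pf4 and Ppbp, the most abundant platelet genes, were at 0 in each library, as were Treml1, Gp1bb and Clec1b. The part of platelets in the Gp1ba value was not tested.

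Pvrig, Cd200 and Slamf1, members with inhibitory or co-signalling roles, were low. Of these only Cd200 is in the list of costimulatory and inhibitory receptors, which as a whole summed to 2074, 2331 and 2729 CPM. Pvrig, an inhibitory receptor of T and NK cells, had 0 counts in naive and was at 9.51 and 1.78 CPM in the memory libraries, at least 68.9-fold above naive. Cd200 was at 2.01, 10.9 and 1.66 CPM, and its receptor Cd200r1 at 4.39, 5.66 and 13.3 CPM. Slamf1 was at 7.7, 17.6 and 5.44 CPM. Slamf6, a surface marker of naive and memory-like cells, was instead highest in naive, at 150, 92.6 and 9.13 CPM. Trdv2-2, a variable segment of the T cell receptor delta locus, was at 1.9, 17.3 and 4.78 CPM. Gamma delta T cell markers summed to 1.97, 26.1 and 35.3 CPM over the 6 of 10 listed genes that were counted. The constant genes Trdc, Trgc1, Trgc2 and Trgc4 were not among them. Much of the sum was variable segments, Trgv2 at 0.446, 13.3 and 22 CPM and Trdv4 at 0.112, 6.03 and 5.62 CPM. The part of gamma delta T cells in the Trdv2-2 value was not tested.

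**Figure D4:**
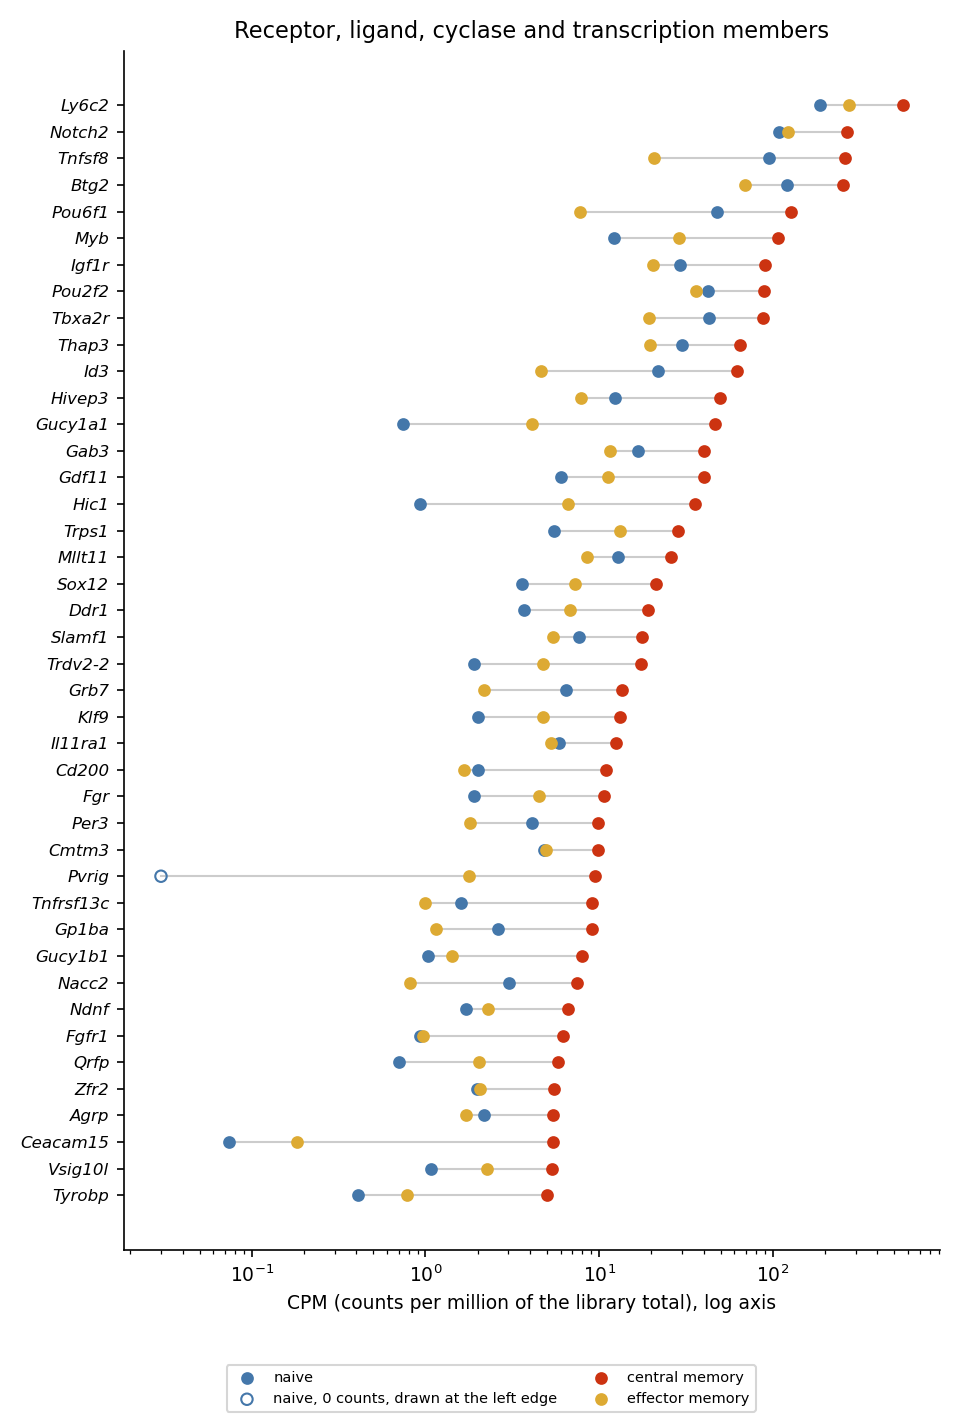
CPM (horizontal log axis) of 42 of the 43 members classed as receptors, ligands and adaptors, as regulators of transcription, or as cyclase subunits, 1 point per library, ordered by level in central memory. Central memory is the rightmost point in each row; Ly6c2 reaches 559 CPM, Pvrig has 0 counts in naive, and Ly6c2, Tbxa2r, Btg2, Trps1, Mllt11, Grb7, Cmtm3 and Tyrobp leave the set under at least 1 other scaling.

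Among 12 kinases and other signalling members, the protein kinase C family gave 2 of its 8 genes at 5 CPM or more. The share over all such genes with kept symbols was 1.48%, and the family was chosen after its values were seen. Prkcz, the atypical zeta isoform, was at 14.8, 55 and 4.68 CPM, 3.72-fold above naive (3.34 to 4.16) and 11.7-fold above effector memory (9.96 to 13.9). Prkca, the classical alpha isoform, was at 77, 186 and 52.6 CPM. The isoform of T cell receptor signalling, Prkcq, was highest in naive at 487, 406 and 222 CPM. Arl4d, a small GTPase of the ARF family, was at 1.82, 22.5 and 2.12 CPM, 12.3-fold above naive (9.23 to 16.8) and 10.6-fold above effector memory (8.31 to 13.8).

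Of 4 DYRK kinases measured at 5 CPM in central memory, 2 were members, against 1.48% of all genes with kept symbols. This family too was chosen after its values were seen. Dyrk4 had 0 counts in naive and was at 7.53 and 0.363 CPM in the memory libraries, so it was at least 54.5-fold above naive. Dyrk1b, known for holding cells in quiescence, was at 8.56, 23.2 and 9.55 CPM, while Dyrk1a and Dyrk2 were highest in naive at 189 and 217 CPM. Tnip3, an inhibitor of NF-kappa-B signalling, had 0 counts in naive and was at 10.5 and 0.907 CPM in the memory libraries, at least 75.8-fold above naive. Sarm1, an enzyme that consumes NAD in dying axons, was at 2.08, 7.48 and 0.121 CPM, the effector memory value being 4 counts. Map3k5, the stress kinase ASK1, was at 42, 104 and 45 CPM. Trib1, a pseudokinase that directs proteins to degradation, was at 0.819, 7.73 and 2.21 CPM, lowest in naive. The group as a whole had a median of 3.02-fold above the nearer library, with Cul9, which leaves under another scaling, lowest at 2.03-fold.

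Mitochondrial and metabolic genes gave 17 members, from 5.19 to 123 CPM in central memory and at a median of 2.72-fold above the nearer library. Slc25a53, a mitochondrial carrier, had the highest counting bound of those at 20 CPM or more, at 9.56, 40.7 and 10.4 CPM, which is 4.25-fold above naive (3.72 to 4.88) and 3.91-fold above effector memory (3.48 to 4.41). Slc25a45 was at 49.2, 113 and 32.6 CPM and Slc25a35 at 4.39, 13.9 and 1.09 CPM. These were 3 of 37 mitochondrial carriers at 5 CPM or more, a family chosen after its values were seen, against 1.48% of all such genes. The abundant adenine nucleotide carrier Slc25a5 was highest in effector memory at 298, 323 and 600 CPM. Etfbkmt, which methylates the beta subunit of electron transfer flavoprotein, was at 17.1, 55.5 and 13.1 CPM. Pink1, the kinase that marks damaged mitochondria for removal, was at 54.5, 123 and 55.3 CPM.

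Echdc2 had 0 counts in naive and was at 18.7 and 3.75 CPM in the memory libraries, at least 136-fold above naive. Gapdhs, the sperm form of the glycolytic enzyme GAPDH, was at 7.29, 23.7 and 8.01 CPM. The common form Gapdh was instead counted lowest in central memory, at 14.7, 9.18 and 90.3 CPM. How the counting treated reads with several alignments is not known. The 2 levels are therefore no measure of which form prevails, and the cause of the low Gapdh counts was not tested. Coq8a, which supports coenzyme Q synthesis, was at 11.8, 29.4 and 6.74 CPM, and the copper chaperone Cox17 at 6.4, 18.1 and 6.41 CPM. Nudt14, a hydrolase of nucleotide sugars, was at 7.63, 34.9 and 12.8 CPM, and Slc43a1, an amino acid transporter, at 0.409, 6.83 and 1.51 CPM, both lowest in naive. Bckdha, Camkmt, Ggt7, Iah1 and Ppcdc leave this group under another scaling.

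Genes of glycans, matrix and secreted proteins numbered 10. Chst2, a sulfotransferase that adds sulfate to N-acetylglucosamine of glycans, had 0 counts in naive and was at 24.7 and 3.38 CPM in the memory libraries. It was at least 180-fold above naive and 7.29-fold above effector memory (5.99 to 8.96). Reck, a membrane-anchored inhibitor of matrix metalloproteinases, was at 1.49, 44.4 and 12.6 CPM, 29.9-fold above naive (21.8 to 42). Both were lowest in naive. Sulf2, an extracellular enzyme that trims heparan sulfate, was at 0.0744, 5.83 and 1.12 CPM, 78.4-fold above naive on 2 counts there (21.4 to 651). Its exons overlap those of Ncoa3, at 239, 224 and 124 CPM, on the opposite strand. Olfml3, a secreted protein, was at 1.86, 9.54 and 0.121 CPM, the lowest level being in effector memory. The acute-phase genes Orm2 and Orm3 are adjacent near-copies of each other, and how reads were divided between them is unknown. Cpd, the processing enzyme carboxypeptidase D, was at 1.04, 16.3 and 4.29 CPM. Orm2 was at 2.23, 5.27 and 1.48 CPM and Orm3 at 2.27, 5.66 and 0.997 CPM.

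The 18 members of vesicles, lysosomes and membrane transport were, at the median, 2.32-fold above the nearer library. Lyst, the lysosomal trafficking gene mutated in Chediak-Higashi syndrome and beige mice, was at 272, 549 and 158 CPM. Gramd3 was at 210, 426 and 111 CPM. Both sat at the limit over naive and leave under another scaling. Ank, which exports pyrophosphate and ATP from cells, was clear of it at 18.7, 56.6 and 10.3 CPM, 3.03-fold above naive (2.75 to 3.35) and 5.48-fold above effector memory (4.88 to 6.16). Syt6, a synaptotagmin, was at 3.01 and 9.09 CPM and had 0 counts in effector memory, at least 81.1-fold below central memory. Bsn, a large scaffold protein known from synapses, was at 4.43, 19.6 and 2.75 CPM, and Rundc3a had the highest smaller ratio of the group, 5.71, at 3.05, 17.4 and 1.93 CPM. Mcoln2, a cation channel of endosomes and lysosomes, was at 22.5, 51.2 and 20.3 CPM. The Golgi GTPase Rab6b was lowest in effector memory, at 23.9, 51.4 and 7.31 CPM. Kcnj8, Lrrc8d and Snx29 leave this group under another scaling.

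Cell death and defence gave 4 members, among them the most abundant of all by CPM. Samhd1, an enzyme that degrades deoxynucleotides and restricts retroviruses in resting cells, was at 528, 1179 and 463 CPM, 2.23-fold above naive (2.19 to 2.27) and 2.54-fold above effector memory (2.5 to 2.59). Bcl2l11, the pro-apoptotic gene of BIM, was at 77.4, 197 and 89.8 CPM. The anti-apoptotic Bcl2 was also highest in central memory, at 304, 958 and 591 CPM, but only 1.62-fold above effector memory. Ncf1, a cytosolic subunit of the phagocyte NADPH oxidase, was at 41.1, 107 and 44.3 CPM, whereas the catalytic subunit Cybb was at 1.45, 0.0558 and 0 CPM. Naip5, an intracellular sensor of bacterial flagellin that leaves under another scaling, was at 0.595, 10.7 and 4.96 CPM, and its paralog Naip2 was at 4.91, 17.9 and 13.9 CPM. Per kilobase of exon, the highest members in central memory were Rsrp1 at 228 CPM, Ly6c2 at 204 and Samhd1 at 129.

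Among genes without an assigned role, Samd3 stood out at 0.446, 79.9 and 8.76 CPM. It was 179-fold above naive (102 to 347) and 9.12-fold above effector memory (8.08 to 10.3), and the order naive, effector memory, central memory is that of Gucy1a1, Hic1 and Reck. Rsrp1, an arginine and serine rich protein, was at 345, 765 and 304 CPM. Nxpe3 was at 51.3, 162 and 59.2 CPM. Mettl27 was lowest in effector memory, at 11.4, 34.6 and 4.11 CPM, and Foxred2, which leaves under another scaling, was lowest in naive, at 11.6, 75 and 36 CPM. Heatr9 rested on 1 count in naive, at 0.0372, 13.7 and 2.24 CPM, which gives 368-fold with an interval of 65.8 to 14570.

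Effector memory against naive is the comparison that the rule did not use, though the rule holds both libraries to at most 50% of the central memory level. A gene was called when the ratio was at least 2, its counting interval excluded 1 and the higher library had at least 5 CPM. Of the members, 7 were higher in effector memory (5.38%, against 17.5% of the 8810 genes at 5 CPM or more in central memory with kept symbols). A further 10 were lower (7.69%, against 16.1%), and 113 were neither. The minimum level bears on these shares: 60 members were under 5 CPM in both libraries and could not be called. All the calls came from the other 70, and how much of the difference the level accounts for was not tested. Without that minimum, a choice made after the values were seen, 27 members were higher (20.8%, against 17.9%) and 21 lower (16.2%, against 16.3%), shares near the background. The median log2 ratio of effector memory over naive was -0.15 over the members and -0.06 over all these genes.

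The 7 called higher in effector memory were Samd3, Reck, Hic1, Myb, Sox12, Trps1 and Foxred2, of which Hic1, Myb, Sox12 and Trps1 encode DNA-binding regulators. Samd3 was 19.6-fold above naive there (11.1 to 38.4), Reck 8.45-fold (6.1 to 12), Hic1 7.08-fold (4.67 to 11.2) and Myb 2.36-fold (2.08 to 2.68). The 10 called lower were Prkcz, Mettl27, Leng9, Tnfsf8, Grb7, Tbxa2r, Id3, Pou6f1, Rab6b and Snx29. Pou6f1 was lowest relative to naive, at 0.164 of its level (0.143 to 0.187), followed by Id3 at 0.213 (0.177 to 0.255) and Tnfsf8 at 0.218 (0.2 to 0.237). Trps1, Foxred2, Grb7, Tbxa2r and Snx29 leave the members under another scaling.

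**Figure D5:**
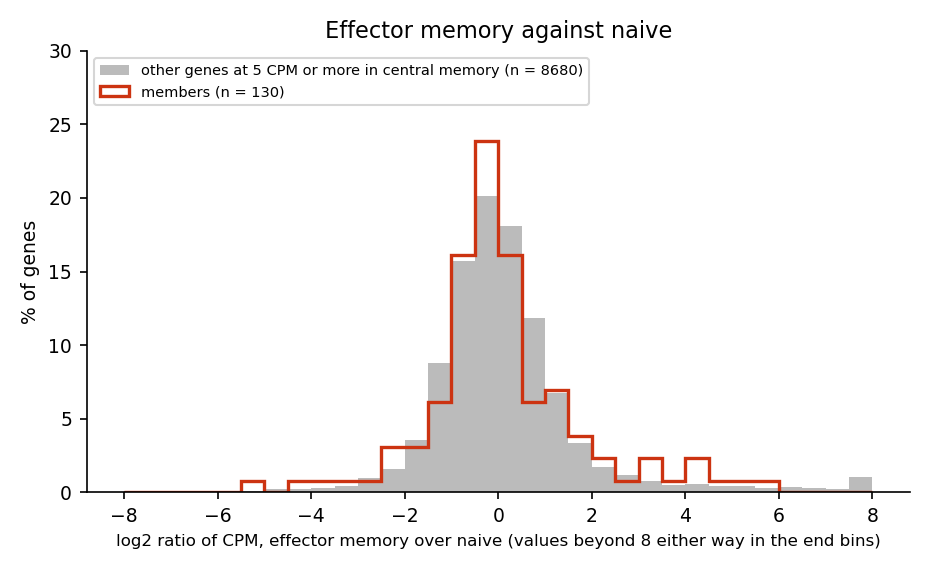
Share of genes (vertical, %) by log2 ratio of CPM of effector memory over naive (horizontal, bins of 0.5), for the 130 members (red line) and the other 8680 genes with kept symbols at 5 CPM or more in central memory (grey bars). Both centre near 0, with medians of -0.15 for the members and -0.06 for all these genes, and the members reach to both sides.

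The members were spread thinly over the gene lists examined. Of all genes at 5 CPM or more in central memory with kept symbols, 1.48% were members. The list counts also hold genes whose symbols were left out, so they and this share do not cover quite the same genes. Transcription factors gave 4 of 110 genes at 5 CPM or more in central memory (Hic1, Id3, Myb and Trps1). Cytokines and growth factors gave 1 of 12 (Tnfsf8), co-signalling receptors 1 of 29 (Cd200), innate adaptors and paired receptors 1 of 27 (Tyrobp), glycan synthesis 1 of 38 (Chst2), G protein and lipid signalling 2 of 98 (Fgr and Prkca), granule and lysosome genes 1 of 39 (Lyst), the cytoskeleton 2 of 44 (Ank and Myo3b) and metabolic enzymes and transporters 1 of 73 (Kcnj8). No member came from 45 cytokine receptor genes, 50 migration and adhesion genes, 41 cell cycle genes or 46 interferon-stimulated genes. The NK cell list gave no member, since 4 of its 9 genes at this level (Klrb1c, Klre1, Klri2 and Ncr1) met the ratios and were removed by symbol. Before symbols were left out, 1.71% of all genes at this level met the ratios. Central memory markers gave 1 member of 14, Ly6c2, and Cxcr3, at 6.14, 209 and 49.7 CPM, was removed by symbol.

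Some member values could hold reads of an overlapping gene. Of the 128 members found in GENCODE M21, 127 are protein coding and 20 (15.6%) share exon bases with another gene of the table, against 22.5% of 8751 genes at 5 CPM or more. For 17 members the overlapping gene is on the opposite strand, and unless the counting used strand, which the labels do not say, reads of both cannot be told apart. The partner was far above the member for Leng9, at 6.29, 14.3 and 3.08 CPM beside Leng8 at 434, 672 and 190 CPM. Agrp, a hypothalamic neuropeptide gene, was at 2.16, 5.44 and 1.72 CPM beside Ctcf at 268, 235 and 203 CPM. Ccdc39, Myo1h, Sulf2, Mllt11, Tmem191c, Ggt7 and Iah1 also had a partner on the opposite strand that was higher in each library. Capn3 had one on the same strand, Ganc, at 35.6, 42.5 and 28.9 CPM. Ncf1 overlaps Gtf2ird2, at 37.8, 42.1 and 17.2 CPM, and Coq8a overlaps Cdc42bpa, both on the opposite strand. Besides the cyclase pair and the Orm pair, 4 pairs of members lie within 100 kb of each other, the closest being Igf1r and Pgpep1l at 2.94 kb on opposite strands of chromosome 7.

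Promoters of the members were searched for 10 short motifs on both strands, in the 300 bases from 250 before to 50 after the most upstream RefSeq start (GRCm38.p6), for the 106 members with an entry. The motif with the highest ratio of its share in members to its share in genes at 5 CPM or more was the T-box core TCACACC (reverse GGTGTGA), chosen for display after these shares were seen. It was in 9 of 106 member promoters (8.49%), 3.2% of those of 7085 genes at 5 CPM or more in central memory, and 3.96% of all 27025. T-box factors include Eomes, which was at 39.5, 74.4 and 77.2 CPM and was no member. The matches that lie outside annotated exons are shown with 15 bases on either side where the window allows, 5′ to 3′ on the gene's strand and with the match in capitals.
Samd3: cacttcctgatgattTCACACCtttctgtt
Myb: GGTGTGAgccggcgccacccgg
Gapdhs: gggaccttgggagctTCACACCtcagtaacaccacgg
Cul9: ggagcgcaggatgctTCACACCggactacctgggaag
P4htm: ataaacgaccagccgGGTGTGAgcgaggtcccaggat
Ppcdc: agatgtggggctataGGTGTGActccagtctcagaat
They lie at chr10:26229677-26229706 (plus strand) for Samd3, chr10:21161213-21161234 (minus) for Myb, chr7:30743693-30743729 (minus) for Gapdhs, chr17:46546457-46546493 (minus) for Cul9, chr9:108597729-108597765 (minus) for P4htm and chr9:57439921-57439957 (minus) for Ppcdc. The match begins 15 bases before the start of Samd3 and 250 bases before that of Myb, so its place is not shared. Cul9 and Ppcdc leave the members under another scaling.

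As a ratio of shares, the other motifs stood lower than the T-box core. The forkhead core GTAAACA was in 5.66% of member promoters and 2.61% of those of genes at 5 CPM or more, the RUNX core TGTGGT in 16% and 12.1%, the MYB core AACGG in 18.9% and 25%, and the E-box CACGTG in 8.49% and 11.2%. The TATA box TATAAA stood at 8.49% and 5.91%, the CRE TGACGTCA at 2.83% and 3.54%, and the AP-1 motif TGANTCA at 4.72% and 4.04%. Member promoters had a median GC content of 59.3%, against 61.3%, and a median of 16 CpG dinucleotides in 300 bases, against 22. A match is a run of letters and not a measured site.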

How the data were processed

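The table deposited by the authors lists integer counts of reads by gene symbol in 3 columns, 1 for each library of RNA from sorted spleen CD8+ T cells. Its columns TN, TCM and TEM were taken as naive, central memory and effector memory. Tools named by the submitters' processing notes are featureCounts 1.5.0-p3, HISAT2 2.0.5 and CASAVA, with mm10 as the genome build. Which annotation was used, whether counting used strand and how reads with several alignments were treated is not given in the sources used here.

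CPM was each count divided by its column total, times 1000000. Ratios between libraries carry 95% exact (Clopper-Pearson) counting intervals. For the rule, a count of 0 in the lower library was set to 3 counts. Such a ratio is given in the text as the lower end of its interval, written as at least. With 1 library a group no test was possible. Calls of effector memory against naive are a rule of size. Alternatives were TMM and upper quartile factors (edgeR 4.0.16), DESeq2 1.42.0 size factors, other level and ratio limits, stricter counting bounds and no symbol left out. Computation used Python 3.11.15 and R 4.3.3.

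The members, the gene lists and the alternatives were chosen with earlier results of these data known. Genes named were the 25 members with the highest lower bound of the smaller ratio at 20 CPM or more, the 10 highest in level, up to 8 members of each list, the 5 on each side of both limits, and marker genes. The rule named more genes than are given. Some genes it took are not reported here. Other genes, the roles, families and motifs were chosen after their values were seen. Members were matched by symbol to GENCODE M21, where AC123724.2 and Gatsl2 were not found. CPM per kilobase used merged exon length.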

Additional observations from a re-analysis of the deposited data

How the results depend on the processing

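The 130 members became 139 with TMM factors, 110 with DESeq2 size factors and 112 with upper quartile factors, and the members higher or lower in effector memory than in naive stayed within 1.5 times of 7 and 10. The limits of the rule moved the counts further. A minimum of 1 CPM gave 208 members, 20 CPM gave 62 and no minimum gave 312. A ratio of 1.5 gave 421 members, 26 of them higher and 47 lower in effector memory; a ratio of 3 gave 51, with 4 higher and 2 lower; and a ratio of 4 gave 30, with 2 higher and 0 lower. No p-value at any level exists for this 0. Requiring both lower counting bounds at 2 or more gave 86 members, 5 of them lower. With no symbol left out, 12 were higher. With no minimum level in that call, an alternative added after the data were seen, 27 were higher and 21 lower. The share of higher among these calls was 41.2%, and 35.6% at a ratio of 1.5, 56.2% without the minimum, 66.7% at a ratio of 3 (4 of 6 calls) and 100% at a ratio of 4 (2 of 2).

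No paired analysis was possible because each group has 1 library and no library can be left out. Differences between groups and differences between animals, sorts or preparations cannot be told apart. At 5 CPM a count of 0 elsewhere is a bound only.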

Other observations

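The 31 genes left out by symbol met the same level and ratios as the members, and their values were chosen for mention after they were seen. Among them were secreted and surface proteins of memory and innate lymphocytes. Xcl1, a chemokine that attracts cross-presenting dendritic cells, was at 0.67, 23.9 and 0.181 CPM in the same order of libraries. Ccl5, a chemokine stored by memory CD8+ T cells, was at 0.67, 244 and 18.6 CPM, and Itgax, the integrin CD11c, at 0.372, 115 and 9.01 CPM. Cxcr5, the receptor that guides lymphocytes to B cell follicles, was at 3.5 and 15.4 CPM with 0 counts in effector memory. Mxd4, a repressor that competes with MYC for its partner, was at 72.2, 279 and 54.1 CPM. Mme, the surface peptidase CD10, had 0 counts in naive and was at 33 CPM in central memory and 12.8 in effector memory. The receptor segment Trbv12-1 was at 41.2, 665 and 151 CPM.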
